A study of Gallus gallus with 858 samples.

Results

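Sorted chick cells at ss11, the early placode stage of 11 to 12 somites, were divided by how much reporter transcript each held, and reporter-high cells were set against reporter-silent cells across all genes. Reporter-high cells had at least 100 GFP CPM, that is, reads of the EGFP transcript per 1000000 reads counted to genes in the cell, and reporter-silent cells had no such read. Of the 858 cells in the series, 33.1% were from ss11, and 92.3% of those had the 500000 counts and 1000 genes asked of a cell. Reporter-high cells were 38.5% of the cells kept at ss11 (74 cells under 1000 GFP CPM and 27 at or above it), reporter-silent cells were 43.5% (20 with GATA3 detected and 94 without), and the 47 cells between, 17.9%, had few GFP reads. Embryos at head fold stage had received by electroporation the plasmid pTK-Pax2E1-EGFP, whose Pax2 enhancer switches on EGFP in progenitors of the ear and the epibranchial placodes and in those placodes later. They were grown at 38 °C, only tissue rostral to the first somite was taken from the head, and EGFP-positive cells were collected singly by FACS for SmartSeq2, which reads whole transcripts without molecular identifiers. All cells of both groups therefore carry the same treatment, come from one sort and passed the same fluorescence gate. That gate read EGFP protein, whereas the groups here rest on EGFP transcripts. Embryo and plate are not given for single ss11 cells, so the stage counts as 1 sample, cells are not replicates, and no test between the groups was possible. The plasmid reaches only part of the cells of an embryo, and why cells that passed the gate held no EGFP read was not tested. The 22 cells below the limits on counts and genes included 6 with at least 100 GFP CPM and 14 with no GFP read.

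Otic-epibranchial progenitors are a patch of ectoderm beside the hindbrain that can form the inner ear or the epibranchial ganglia. Placodal cells are epithelial and hold to one another by cadherin and claudin contacts. Neural crest cells arise close by at the edge of the neural plate, give up those contacts and migrate as mesenchyme. GATA3 and DLX3 are transcription factors of the non-neural ectoderm and placodes, SOX8, SOX10, LMX1A and SOHO-1 are otic factors, and PAX7, FOXD3 and TFAP2B are neural crest factors. SOX10 is a gene of both otic and neural crest cells, so it cannot tell them apart alone.

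The groups were chosen by GFP, which is therefore given as a description. GFP ran from 105.3 to 8104 CPM with a median of 466 CPM in reporter-high cells, and every reporter-silent cell had 0 GFP reads. A count of 0 allows up to 2.88 CPM in a reporter-silent cell of median depth and 5.6 CPM in the shallowest (3 counts). The 47 cells between ran from 0.845 to 97.1 CPM. The 3 cells just above the limit of 100 CPM had 105.3, 114.3 and 127.2 CPM, and the 3 just below had 90.7, 92.01 and 97.1 CPM. Depth was close between the groups, with a median of 1006785 counts and 5002 genes per reporter-high cell against 1040347 counts and 4894 genes per reporter-silent cell. At 500000 counts each the medians were 4833 and 4756.5 genes. No pair of ss11 libraries correlated above 0.856 (log2 CPM plus 1), so none was taken as a duplicate.

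Across genes, 6860 of 24356 reached at least 20 CPM and detection at 10 CPM in at least 20% of cells in either group. Summed counts were scaled to CPM, and log2 folds (reporter-high over reporter-silent) were taken after adding 1 CPM. By this measure 5.03% of the measured genes (345) were at least 2-fold higher and 3.98% at least 2-fold lower in reporter-high cells, and the median gene differed by -0.01 on the log2 scale. Gene symbols were at hand for 332 identifiers, nearly all from genes that the study had picked in other, bulk samples, and 66 of the higher and 22 of the lower genes carried one. The genes named here are thus a small and selected set: 14 of the 15 highest belong to the list of genes enriched in bulk epibranchial cells, and all 15 lowest to the list enriched in bulk otic cells. PAX2 itself, FOXI3, EYA2, SOX2, SOX3 and genes of the cell cycle were not analysed here.

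GATA3 (ENSGALG00000029270), the gene given as a marker of the contrast, had a level of 144.2 CPM in reporter-high cells and 23.96 CPM in reporter-silent cells, a log2 fold of 2.54. The counting interval of its ratio, taken without the added 1 CPM, was 2.53 to 2.65 on the log2 scale. It was detected in 69 reporter-high cells (68.3%, exact binomial 95% interval 58.3 to 77.2) and in 20 reporter-silent cells (17.5%, 11.1 to 25.8). Single-cell levels ran from 0 over a median of 91.01 to 1334 CPM in reporter-high cells, against 0, 0 and 412 CPM in reporter-silent cells. The groups thus overlapped: most reporter-silent cells sat at 0, but the reporter-silent cells with GATA3 reached into the range of the reporter-high ones. These intervals, here and below, cover counting error only, and copies made by PCR are not independent molecules. DLX3, a homeobox factor of the placodal ectoderm, was detected in 37 reporter-high cells and 9 reporter-silent cells, at 25.8 against 3.37 CPM. DLX6 had 12.7 against 2.1 CPM and did not reach the limits for a measured gene.

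Genes of epithelial cells were higher in reporter-high cells. Of 17 in the list, 12 were measured, with a median log2 fold of 1.85 beside -0.01 over all measured genes. Of the 12, 10 were at least 2-fold higher in reporter-high cells and none at least 2-fold lower. Over all measured genes these shares were 5.03% and 3.98%. All 17 also belong to the list enriched in bulk epibranchial cells, and KRT18 is counted among the epibranchial genes below as well, so these lists are not separate. A gene could pass the limits on level through its higher group alone, which holds for every count of list members given here. EPCAM, an adhesion molecule of epithelia, was in 93 reporter-high cells (92.1%) and 58 reporter-silent cells (50.9%), with a log2 fold of 2.12. Its median cell had 1018 CPM in the reporter-high group and 11.04 CPM in the reporter-silent group. The tight junction gene CLDN1 was higher still in level, with a median of 3709 CPM per reporter-high cell and 132.6 CPM per reporter-silent cell. CDH1, which encodes E-cadherin, was detected in 69.3% of reporter-high cells (59.3 to 78.1) and 17.5% of reporter-silent cells (11.1 to 25.8). EZR, encoding ezrin, which ties the actin cortex to the apical membrane, was detected in 87 reporter-high cells at a group median of 382 CPM and in 31 reporter-silent cells at a group median of 0 CPM. ESRP1 and ESRP2, splicing factors that keep epithelial isoforms, had log2 folds of 2.82 and 1.84. KRT7 missed the 2-fold line at 0.99, but without the cell of highest level in each group its log2 fold was 2.2, and 1 reporter-silent cell held 14139 CPM.

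**Figure D1:**
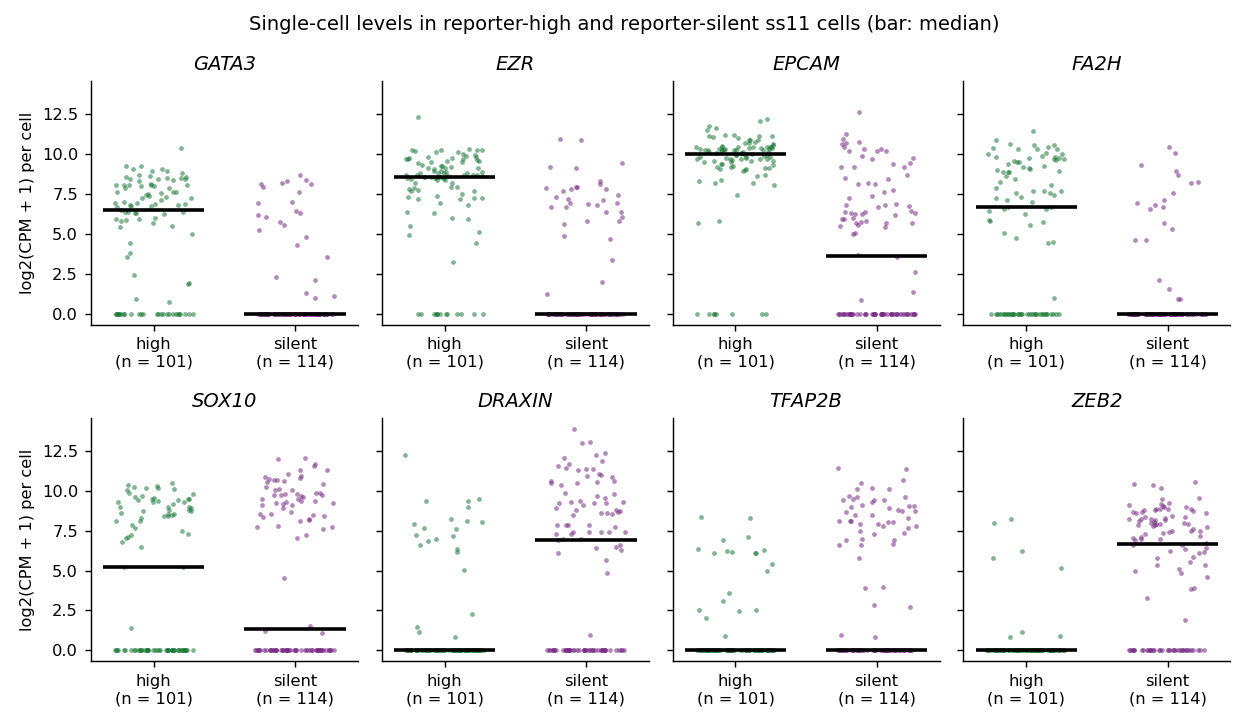
Level of 8 genes in each ss11 cell, as log2 of CPM plus 1, in reporter-high cells (left) and reporter-silent cells (right). Points are cells and black bars medians; EPCAM medians were 1018 and 11.04 CPM, whereas ZEB2 was at 0 in the median reporter-high cell and at 101.6 CPM in the median reporter-silent cell, and SOX10 spread over both groups.

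The 5 highest folds with a symbol (AGR2, FGF8, VGLL2, BLNK and PLEKHS1) belonged to genes detected in a minority of reporter-high cells. AGR2, a protein disulphide isomerase of secretory epithelia, was at 77.4 against 2.1 CPM, a 25.3-fold difference after the added 1 CPM, and was detected in 37 reporter-high cells and 4 reporter-silent cells. FGF8, a signalling ligand, was detected in 26 against 4 cells, and the ligand FGF18 in 55 against 20 cells. FGF8 was at 32.3 CPM against 1.12 CPM and FGF18 at 77.9 CPM against 12.6 CPM. No other gene listed here for FGF signalling and with an identifier was measured. FGF7 had 0 counts in both groups, and FGFRL1, a receptor-like gene, was at 2.59 against 2.01 CPM. FA2H, a fatty acid hydroxylase, was in 63 reporter-high cells at 383 CPM and in 17 reporter-silent cells at 45.6 CPM. BLNK, an adaptor known from B cell receptor signalling, was at 69.02 against 5.87 CPM, but 1 reporter-high cell of 5055 CPM held 41.6% of its reporter-high counts, and without it the level was 40.6 CPM and the log2 fold 2.60. PLEKHS1 (a pleckstrin homology domain protein), RNF128 (an E3 ubiquitin ligase) and SPIK5 had log2 folds of 3.26, 2.97 and 3.01. SPIK5 reached 8162 CPM in 1 reporter-high cell while its median was 0 in both groups. Of the genes with no symbol, ENSGALG00000003217 and ENSGALG00000054473 had the highest log2 folds, 3.77 and 3.08.

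Epibranchial genes had higher levels in reporter-high cells. All 8 of the list with an identifier were measured, 7 were at least 2-fold higher and the median log2 fold was 2.02. Over all measured genes 5.03% were at least 2-fold higher. Only KRT18 and PDLIM1, with log2 folds of 1.87 and 0.46, also reached the limits in reporter-silent cells. The others passed through reporter-high cells alone, which favours this direction. VGLL2, a cofactor of TEAD transcription factors, was detected in 25 reporter-high cells and in 1 reporter-silent cell. ISL1, a LIM homeobox factor of cranial sensory neurons and their precursors, was at 78.2 against 12.3 CPM. TFAP2E, an AP-2 factor, was detected in 44.6% (34.7 to 54.8) against 6.1% (2.5 to 12.2) of cells. The keratin gene KRT18 was in 88 against 38 cells, and PRDM1, a zinc finger repressor, in 58 against 17 cells. NELL1 had a log2 fold of 1.18, UPK1B of 2.17 and PDLIM1 of 0.46. At least 2 of the 8 genes at 10 CPM were found in 82 reporter-high cells (81.2%, 72.2 to 88.3) and in 36 reporter-silent cells (31.6%, 23.2 to 40.9). In the bulk epibranchial list, which the study had drawn from other samples and which holds all 17 epithelial and all 8 epibranchial genes above, 93 of 319 genes were measured, 76 were at least 2-fold higher and 1 at least 2-fold lower, with a median log2 fold of 1.75. The lower one was ASTL, an astacin-type protease gene, at 227.03 against 580 CPM.

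Otic genes did not move as a block. SOHO-1, a homeobox gene of the otic placode, was at 120.7 CPM and in 37 reporter-high cells, against 22.2 CPM and 15 reporter-silent cells. LMX1A, a LIM homeobox factor, was detected in 43 against 21 cells, with levels of 68.2 and 32.9 CPM. SOX8 differed less, with 157.1 against 82.5 CPM and detection in 66.3% (56.2 to 75.4) against 50.9% (41.3 to 60.4) of cells. SOX10 had fewer counts in reporter-high cells, 281.8 against 537 CPM, but nearly the same share of cells, 51 (50.5%, 40.4 to 60.6) against 56 (49.1%, 39.6 to 58.7). DACT2, a modulator of Wnt and TGF-beta signalling counted here as otic, was lower in reporter-high cells at 107.6 against 295 CPM. Over the 5 otic genes the median was 0.92 on the log2 scale, and at least 2 of them were detected in 61.4% of reporter-high cells (51.2 to 70.9) and 55.3% of reporter-silent cells (45.7 to 64.6).

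The cells that carried SOX10 differed between the 2 groups in the direction in which all cells of the groups differed. Among reporter-high cells with SOX10, 37 of 51 (72.5%, 58.3 to 84.1) also had GATA3, 42 of 51 had SOHO-1 or LMX1A, and 8 of 51 (15.7%, 7.0 to 28.6) had at least 2 neural crest genes. In reporter-silent cells with SOX10, 15 of 56 (26.8%, 15.8 to 40.3) had GATA3, 21 of 56 had SOHO-1 or LMX1A, and 40 of 56 (71.4%, 57.8 to 82.7) had at least 2 neural crest genes. DACT2 went with at least 2 neural crest genes in 7 of 35 reporter-high cells and 36 of 59 reporter-silent cells, and SOX8 in 9 of 67 and 35 of 58. Over all cells of each group, 11.9% of reporter-high and 50% of reporter-silent cells had at least 2 neural crest genes, and 68.3% and 17.5% had GATA3. Taken singly, LMX1A was in 42.6% and 18.4% of all cells, and SOHO-1 in 36.6% and 13.2%. The share of all cells with either gene is not given here. In both groups the neural crest share among cells with SOX10, DACT2 or SOX8 lay above that of all cells. Such cells are part of the group they are set beside, and cells are not replicates. Whether they differ from their groups was therefore not tested. Of all SOX10 counts in reporter-silent cells, 86.8% lay in the 57 cells with at least 2 neural crest genes, which held 51.2% of the counts of that group. RXRG is a nuclear receptor counted here as neural crest. Of the reporter-high cells with RXRG, 15 of 20 (75%) had GATA3, 15 had SOHO-1 or LMX1A, and 1 had at least 2 other neural crest genes. Of the reporter-silent ones, 3 of 32 (9.4%) had GATA3, 4 had SOHO-1 or LMX1A, and 27 had at least 2 other neural crest genes. The GATA3 shares over all cells were 68.3% and 17.5%.

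Of the 6 neural crest genes, 5 were measured, and these were at least 2-fold lower in reporter-high cells, with a median log2 fold of -3.34. Over all measured genes 3.98% were at least 2-fold lower. Each of the 5 reached the limits on level and detection in reporter-silent cells alone. Those limits favour this direction, so the direction they share is only a description. TFAP2B, an AP-2 factor, was at 13.3 CPM in reporter-high cells and 221.96 CPM in reporter-silent cells, with detection in 14 against 49. PAX7, a paired box factor, was at 8.27 against 102.5 CPM, and detected in 5 against 37 cells. FOXD3, a forkhead factor of early crest, was found in 2 (2.0%, 0.2 to 7.0) against 35 cells (30.7%, 22.4 to 40%). DRAXIN, a secreted Wnt antagonist of the dorsal neural tube and crest, was in 19 against 65 cells, at 80.3 against 820 CPM. A single reporter-high cell held 4922 CPM of DRAXIN, and the highest reporter-silent cell 15090 CPM. EDNRB, the remaining gene, was in 5 against 15 cells and did not reach the limits. At least 2 of the 6 genes were detected in 12 reporter-high cells (11.9%, 6.3 to 19.8) and 57 reporter-silent cells (50%, 40.5 to 59.5), and at least 4 in 2 against 31 cells.

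ZEB2, a repressor of E-cadherin and of other epithelial genes, showed the largest gap in detection among the 15 lowest genes. It was found in 5 reporter-high cells (5.0%, 1.6 to 11.2) and 75 reporter-silent cells (65.8%, 56.3 to 74.4), at 6.42 against 196.4 CPM and a log2 fold of -4.73. EZR without ZEB2 was found in 84 reporter-high and 21 reporter-silent cells, ZEB2 without EZR in 2 and 65, and both in 3 and 10, so that 3 of 5 reporter-high and 10 of 75 reporter-silent cells with ZEB2 also had EZR. ZEB2 was also found outside the cells that met the neural crest limit. Of the 75 reporter-silent cells that had it, 29 held fewer than 2 of the 6 genes, which can include 1. FABP7, a fatty acid binding protein of neural progenitors and glia, was detected in 24 against 80 cells. COL9A3, a collagen chain, had the lowest log2 fold of the genes with a symbol, -5.24, at 1.82 against 106.1 CPM. PLXNA4, a semaphorin co-receptor, and RGCC, a cell cycle regulator, both had a log2 fold of -3.98. SMPD3 (a sphingomyelinase), BFSP2 (a filament protein of the lens), RTN4R (the Nogo receptor), ANOS1 (anosmin) and CRYAB (a small heat shock protein) ranged from -3.10 to -1.96. LEF1, a transcription factor of Wnt signalling, was in 27 against 56 cells, at 22.3 against 84.4 CPM. In the bulk otic list, which holds all 6 neural crest genes and 3 of the otic ones, 34 genes were measured, with a median log2 fold of -1.82. None was at least 2-fold higher and 24 were at least 2-fold lower, beside 5.03% and 3.98% of all measured genes. Leaving out the cell of highest level in 1 group at a time, chosen after the data were seen, moved 13 of the 30 highest and lowest folds by over 1.5 times and left all 30 at least 2-fold apart in the same direction. Among the lowest these were COL9A3, ZEB2, PLXNA4, PAX7, DRAXIN, SMPD3, BFSP2, RTN4R and FOXD3, whose log2 folds without the highest reporter-high cell were -5.99, -5.45, -4.68, -4.41, -3.95, -4.04, -3.54, -3.63 and -4.11. Among the highest these were VGLL2, BLNK, ESRP1 and ISL1, at 4.94, 4.12, 3.45 and 3.17 without the highest reporter-silent cell. Without a symbol, ENSGALG00000000653 and ENSGALG00000000317 had the lowest folds, -5.53 and -5.49, and 1 reporter-silent cell held 16996 CPM of ENSGALG00000000317, without which its log2 fold was -4.68.

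**Figure D2:**
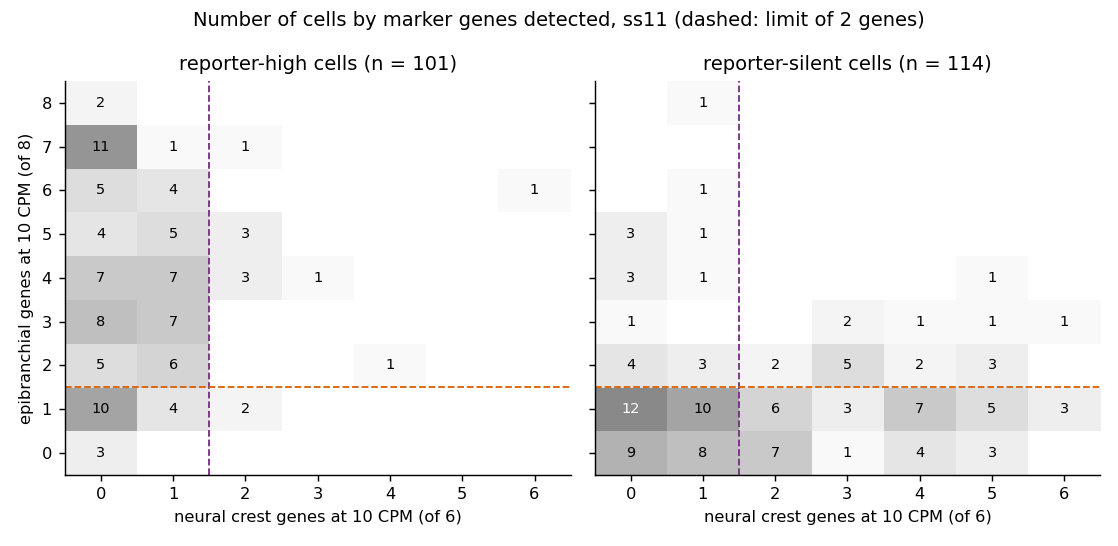
Number of cells by how many of the 6 neural crest genes (horizontal) and of the 8 epibranchial genes (vertical) reached 10 CPM, for reporter-high cells (left) and reporter-silent cells (right). Dashed lines mark the limit of 2 genes; 82 reporter-high and 36 reporter-silent cells lie above the horizontal line, and 12 and 57 to the right of the vertical one.

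Few genes of the lists for other tissues were measured. Of 4 neural genes with an identifier FABP7 and TCF7L1 were measured, and TCF7L1, a repressor in the Wnt pathway, was at 23.4 against 19.5 CPM. At least 2 of the 4 were in 14 reporter-high cells and 42 reporter-silent cells, and 31 of those 42 also had at least 2 neural crest genes. TWIST1 or SIM1, the mesoderm genes with an identifier, were in 6 against 11 cells, and FLI1, the only blood and vessel gene with one, in 3 against 2. Summed levels of the mesoderm genes ran from 0 to 110.9 CPM in reporter-high cells and from 0 to 1326 CPM in reporter-silent cells, with a median of 0 in both. DBX1, a homeobox gene of the neural tube and forebrain, was below 10 CPM in every reporter-high cell and above it in 8 reporter-silent cells. The remaining 5 forebrain genes were detected in at most 6 cells of either group, and none of the 6 was measured. Among genes of the Wnt pathway, 7 of 11 were measured, with 2 at least 2-fold higher (SOSTDC1 at 2.05 and TRABD2A at 2.39, both antagonists) and 3 lower (DRAXIN, LEF1, DACT2). Over all measured genes 5.03% were at least 2-fold higher and 3.98% at least 2-fold lower. The stress and immediate early genes FOS, JUN and HSPA2 had log2 folds of 1.08, 0.54 and 1.19, and HSPA2 is also in the bulk epibranchial list. CHAC1 and PMAIP1 did not reach the limits. CHAC1 was lower in reporter-high cells, at 7.44 against 41.6 CPM, and PMAIP1 was at 4.73 against 2.26 CPM. Neither the part of the stress genes in the other differences nor that of handling was tested.

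Most reporter-high cells held epibranchial genes, with or without otic ones: 50 had at least 2 otic and at least 2 epibranchial genes, 32 epibranchial without otic, 12 otic without epibranchial and 7 neither. Reporter-silent cells numbered 22, 14, 41 and 37 in these classes, and 42 of the 63 with otic genes also met the neural crest limit. None of the 7 tissue lists was met in 5 reporter-high cells (5.0%, 1.6 to 11.2) and 13 reporter-silent cells (11.4%, 6.2 to 18.7). Placodal and neural crest limits were both met by 6 reporter-high cells and 0 reporter-silent cells, which allows a share of up to 3.2% by the exact interval. Among the cells of intermediate GFP, 10 of 47 met both (21.3%, 10.7 to 35.7). The 12 reporter-high cells with at least 2 neural crest genes had a median of 5498 genes and 991639 counts. Over all reporter-high cells the medians were 5002 genes and 1006785 counts. The epibranchial limit was also met by 10 of the 12 (83.3%), close to the 81.2% of all reporter-high cells. Doublets were not removed, and their part in these 12 cells, or in the 10 of intermediate GFP, was not tested.

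Not every reporter-high cell had GATA3. The 32 reporter-high cells below 10 CPM of GATA3 had a median GFP of 445 CPM, against 466 CPM in the 69 with it. EZR was in 25 of the 32, EPCAM in 29, at least 2 epibranchial genes in 20 (62.5%) and at least 2 neural crest genes in 4 (12.5%). Their median of 4280 detected genes was below the 5390 of reporter-high cells with GATA3. Conversely, 15 of the 20 reporter-silent cells with GATA3 had at least 2 otic genes, 11 had at least 2 epibranchial genes and 5 at least 2 neural crest genes. Among the 94 reporter-silent cells without GATA3, 52 (55.3%) met the neural crest limit, and ZEB2 was in 71.

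Across bins of GFP, the share of cells with GATA3 was higher and the share with ZEB2 lower in each bin of more GFP. GATA3 was detected in 17.5%, 20%, 56.8%, 67.6% and 70.4% of cells with 0, above 0 and under 10, 10 to under 100, 100 to under 1000, and 1000 or more GFP CPM, with 10, 37, 74 and 27 cells in the bins above 0. The exact interval of the second share was 2.5 to 55.6, so those 10 cells place it poorly. Levels of GATA3 in the same bins were 23.96, 13.8, 118.3, 138.2 and 161.1 CPM. ZEB2 was found in 65.8%, 40%, 24.3%, 5.4% and 3.7% of cells, with levels of 196.4, 162.4, 98.2, 4.71 and 11.2 CPM. The share of cells with at least 2 epibranchial genes was 31.6%, 50%, 67.6%, 78.4% and 88.9%, whereas that for neural crest genes was 50%, 80%, 45.9%, 10.8% and 14.8%. The 37 cells of 10 to under 100 GFP CPM thus often had epibranchial genes. Their share with at least 2 neural crest genes was close to that of cells with 0 GFP reads. Among all 47 cells of intermediate GFP, 25 had at least 2 neural crest genes. Of these 25, 23 also met the otic limit and 10 the placodal one, against 42 and 0 of 57 reporter-silent cells. VGLL2 was detected in 13.5% of the cells of 10 to under 100 CPM, against 21.6% and 33.3% in the bins above. Its level of 46.6 CPM in those cells rested on 1 cell of 579 CPM, without which it was 26.6 CPM, beside 28.5 and 33.3 CPM in the bins above. Within the reporter-high cells Spearman's rho with GFP CPM lay between -0.24 and 0.15 for each of 42 genes, the 15 highest, the 15 lowest and those followed throughout, and rho was 0.01 for GATA3 and 0.03 for EZR. These correlations run over cells of 1 sort that share their depth range and are sparse in counts, and are given as a description.

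**Figure D3:**
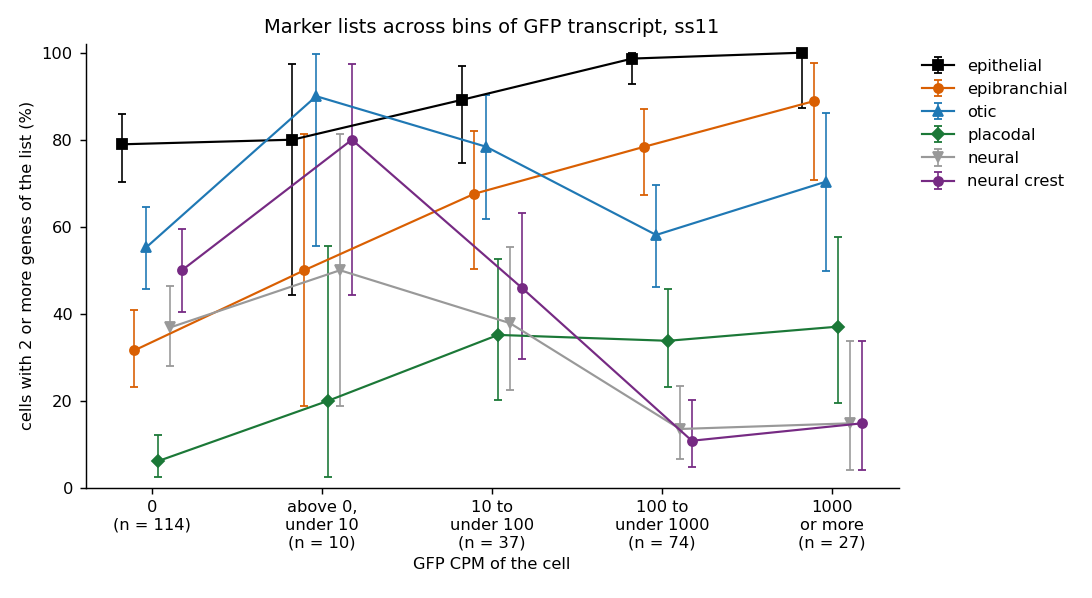
Share of ss11 cells with at least 2 genes of a marker list at 10 CPM, by GFP CPM of the cell from 0 to 1000 or more, with exact binomial 95% intervals. The epibranchial share was 31.6% in the lowest bin and 88.9% in the highest, the neural crest share 50% and 14.8%, and the bin above 0 and under 10 CPM holds only 10 cells.

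Setting reporter-high cells against the 47 cells of intermediate GFP instead shrank most folds. GATA3 then had a log2 fold of 0.55, the epibranchial genes a median of 0.59 and the epithelial genes a median of 0.86. Neural crest genes kept a median of -1.98, from the 4 then measured. Of the 15 highest genes, 7 stayed at least 2-fold higher, and of the 15 lowest 14 stayed at least 2-fold lower. VGLL2 was at -0.32 on the log2 scale, but 5 of the 47 cells had it, and without the cell of 579 CPM the fold was 0.47.

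Leaving out every cell with at least 2 neural crest genes kept 89 reporter-high and 57 reporter-silent cells. The 15 highest genes all remained at least 2-fold higher, among them AGR2 at a log2 fold of 3.93, FGF8 at 3.48, GATA3 at 1.92 and EZR at 1.66. Of the 15 lowest, 13 remained at least 2-fold lower, whereas ANOS1 was at -0.76 and FOXD3 had 0 counts in a group. TFAP2B, PAX7 and DRAXIN are among the 13, although they helped choose these cells. In the bulk otic list 22 genes were then measured, with a median of -0.76. Of these, 10 were at least 2-fold lower and 2 at least 2-fold higher, beside 4.22% and 4.85% of all genes measured in these cells. That list holds the neural crest genes too, of which only DRAXIN was still measured, at -3.42. In the same 89 and 57 cells the epithelial median was lower than in all cells, at 0.94, and the epibranchial median was 1.40. Neural crest genes chose these cells, so their own lower levels are no result here, but ZEB2 stood at 5.90 against 167.5 CPM, a log2 fold of -4.61, and FABP7 at -3.21. SOX10 turned round, to 257.3 CPM in reporter-high and 145.7 CPM in reporter-silent cells, a log2 fold of 0.82.

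Within cells that had at least 2 of GATA3, DLX3 and DLX6 most of the epithelial differences were smaller or turned round. This left 35 reporter-high cells but only 7 reporter-silent ones, so each value rests on few cells, and levels of the 3 genes that chose them are no result. EPCAM was at 1157 against 1234 CPM, EZR at 614 against 523 CPM, FA2H at 481 against 378 CPM and SOX8 at 214.9 against 199.7 CPM. The epibranchial median log2 fold was -0.52 and the epithelial one -0.71. ZEB2, PAX7 and FOXD3 had 0 counts in the 7 reporter-silent cells, as did FGF8, VGLL2 and RNF128. At least 2 otic genes were in 28 of the 35 and 6 of the 7, and at least 2 epibranchial genes in 31 and 4. These 7 cells supplied a large part of what the whole reporter-silent group held of some epithelial transcripts, but not of others. They had 5.36% of its counts, but 42.9% of its KRT18 counts, 34.1% of CDH1 and 24.2% of EPCAM. Over the 17 epithelial genes the share ran from 0% for OCLN to 65.2% for KRT7, with PERP1 at 6.4% and DSG2 at 8.8%. FA2H, which is not in that list, was at 44.5%. Single cells held 33.3% of the KRT18 counts and 27.1% of the FA2H counts of the reporter-silent group.

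**Figure D4:**
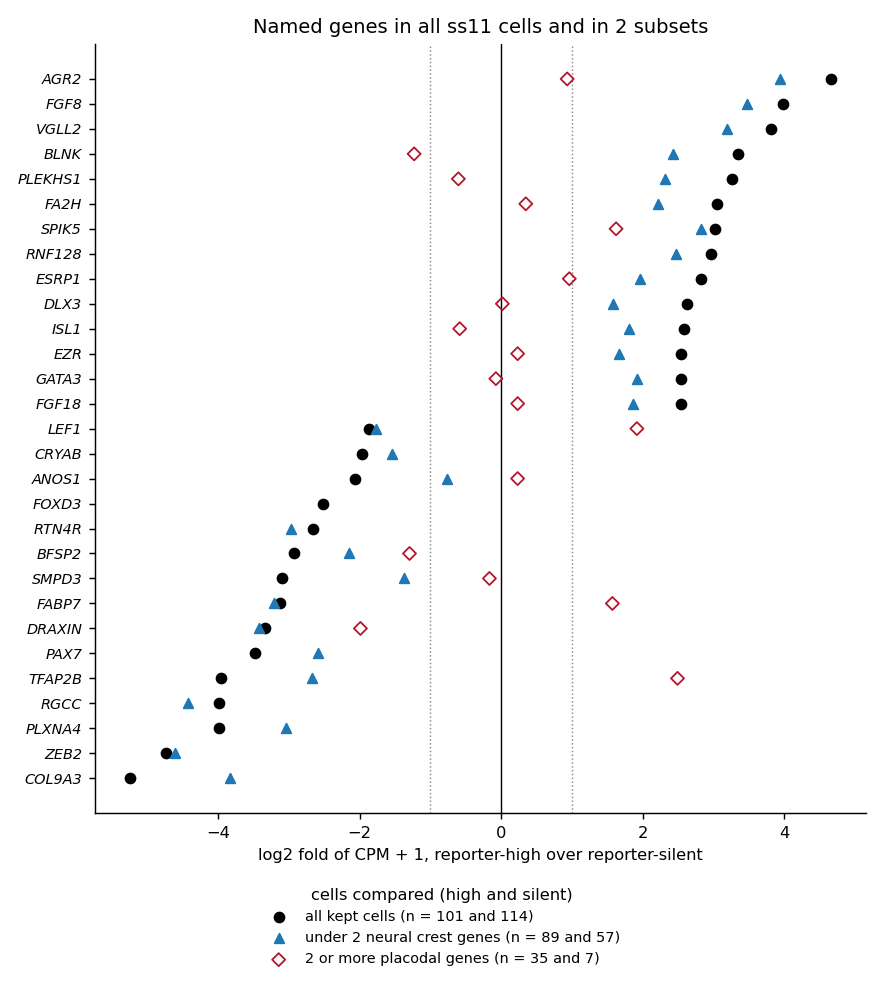
Log2 fold (CPM plus 1, reporter-high over reporter-silent) of 29 named genes, 14 of the highest and 15 of the lowest, in all kept ss11 cells (black), in cells with under 2 neural crest genes (blue triangles, 89 and 57) and in cells with at least 2 placodal genes (open red diamonds, 35 and 7). Genes with 0 counts in either group of a subset have no symbol there, and dotted lines mark 2-fold. EZR lies at 2.54, 1.66 and 0.23. GATA3 and DLX3 helped choose the cells of the red diamonds, so their values there are no result. The same holds for TFAP2B, PAX7 and DRAXIN among the blue triangles.

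The same rule was applied to ss15 cells (14 to 15 somites), which came from another sort and share no cells with ss11. Reporter-high cells were 45.1% of the cells kept there and the 89 reporter-silent cells 36.2%. There were 6752 measured genes, 305 at least 2-fold higher (4.52%) and 319 at least 2-fold lower (4.72%). Of the 345 genes higher at ss11, 280 were measured at ss15, and of these 92.5% lay above 0 there and 53.9% were again at least 2-fold higher. Of the genes lower at ss11, 79.5% were measured, and of these 92.2% lay below 0 and 55.8% were again at least 2-fold lower. All 30 genes of the highest and lowest folds kept their direction, and all but RNF128, at 0.54, kept a 2-fold difference, although RGCC, RTN4R and FOXD3 fell short of the limits for a measured gene at ss15. GATA3 was at 141.02 against 50.7 CPM, a log2 fold of 1.46, and ZEB2 at 12.8 against 163.2 CPM. VGLL2 was at 60.2 against 15.1 CPM. SOX10 again had fewer counts in reporter-high cells, with a log2 fold of -0.45, and SOX8 stood at 0.22. Among the stress genes FOS was at -0.09 and HSPA2 at 1.29, beside 1.08 and 1.19 at ss11. The neural crest limit was met by 9 reporter-high cells (8.1%, 3.8 to 14.8) and 37 reporter-silent cells (41.6%, 31.2 to 52.5). The 2 stages have 1 sort each, so what differs between the stages and what differs between the sorts cannot be told apart.

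**Figure D5:**
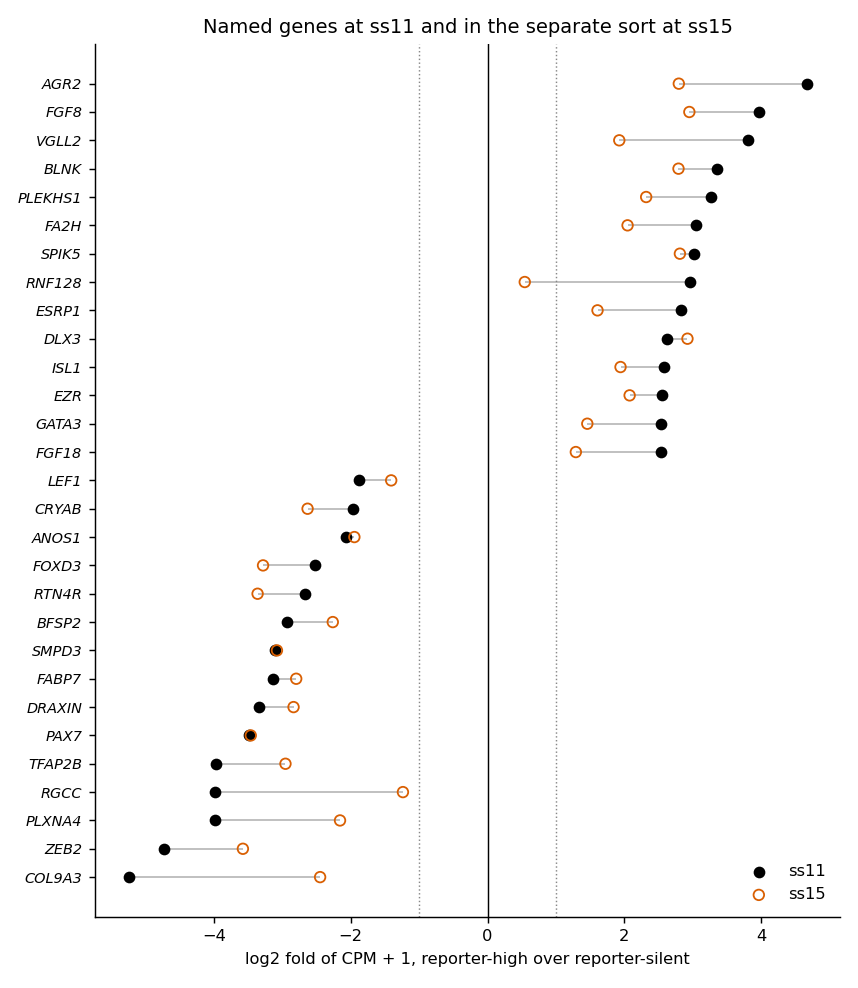
Log2 fold (CPM plus 1, reporter-high over reporter-silent) of 29 named genes, 14 of the highest and 15 of the lowest at ss11, at that stage (filled) and at ss15 (open), with dotted lines at 2-fold. Every gene drawn lies on the same side of 0 at both stages, and RNF128 (2.97 at ss11, 0.54 at ss15) is the only one inside the dotted lines at ss15.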

How the data were processed

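Counts from 284 ss11 cells were used, 262 after the limits on cells, with 101 reporter-high and 114 reporter-silent. At ss15, 246 of 286 cells were kept, with 111 and 89. Per the labels and the study's methods, the authors made the files with Cutadapt 2.10 for trimming, HISAT2 2.2.1 for alignment to galGal6 plus a GFP sequence, HTSeq 0.12.4 and SAMtools 1.10. They deposited unnormalized read counts per Ensembl gene and cell, GFP counts and a table of stages. The library kit does not mark strand, so overlapping and antisense genes cannot be told apart. The study's mitochondrial limit was not applied, and doublets were not removed beyond the single-cell sort. Counts were summed per group, scaled to CPM and compared as log2 of CPM plus 1 (Python 3.11.15, NumPy 2.4.6, SciPy 1.17.1, pandas 2.3.3, matplotlib 3.10.9), with exact Poisson and Clopper-Pearson 95% intervals. The code was tested on simulated data. Detection meant 10 CPM, and a list was met by 2 of its genes (1 for mesoderm and for blood). The named genes were the 15 highest and 15 lowest folds with a symbol, plus genes followed throughout and list members. One of the highest is not reported here by name. ASTL, ENSGALG00000009205 and single cells of high level were named after their values were seen. The groups, the lists and the rule for named genes were chosen with earlier results of these data known. Other limits on GFP, cells and genes, other scalings, other added CPM, subsets of cells and ss15 were tried as alternatives. Gene symbols came from the study's tables, and no sequence or annotation of this genome build was used.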

Additional observations from a re-analysis of the deposited data

Results flagged for a closer look

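Of the genes at least 2-fold apart at ss11 and measured at ss15, ASTL and ENSGALG00000009205 were also at least 2-fold apart at ss15 in the opposite direction, which is what set them aside. ASTL had a log2 fold of -1.35 at ss11, from 227.03 CPM in reporter-high and 580 CPM in reporter-silent cells, and of 1.72 at ss15, from 117.9 and 35.2 CPM. ENSGALG00000009205 had a log2 fold of 1.31 at ss11, from 24.3 and 9.18 CPM, and of -1.20 at ss15, from 11.1 and 26.8 CPM. The difference between the stages was not tested, since each stage is 1 sample.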

How the results depend on the processing

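Counts of genes at least 2-fold apart moved by more than 1.5 times in 4 settings, in the last of those given here for the lower genes alone. As shares of all 24356 genes, measured or not, 1.42% were higher and 1.12% lower as reported. With a minimum of 50 CPM these were 0.682% and 0.554%, with no minimum level or detection 6.20% and 5.74%, and within cells with at least 2 placodal genes (35 reporter-high and 7 reporter-silent) 6.22% and 5.19%. In cells with no neural crest gene, a count added after the data were seen, they were 2.04% and 1.91%. The GATA3 log2 fold was 0.55 against cells of intermediate GFP, 2.83 against reporter-silent cells of at least 1000000 counts, 2.37 with 5 CPM added, 1.92 in cells with fewer than 2 neural crest genes, 1.81 with none and 1.46 at ss15. The neural crest median was -2.01 with a high limit of 50 GFP CPM, -4.42 with 200, -1.98 against intermediate cells and, from DRAXIN alone, -1.99 within placodal-gene cells. The epibranchial median was 0.59 against intermediate cells and 1.40 in cells with few neural crest genes, and the epithelial median 0.86 and 0.94. Within placodal-gene cells the direction turned for the epibranchial (-0.52), epithelial (-0.71), bulk epibranchial (-0.54) and bulk otic (0.31) medians, and for BLNK (-1.23), PLEKHS1 (-0.61), ISL1 (-0.59), TFAP2B (2.49), FABP7 (1.57), ANOS1 (0.23), LEF1 (1.92), LMX1A (-1.81), NELL1 (-1.55), CDH1 (-0.99) and EPCAM (-0.094). The 7 reporter-silent cells held only 6 counts of TFAP2B, 23 of FABP7, 15 of ANOS1 and 22 of LEF1, so those folds rest on very few reads. SOX10, under 2-fold lower in all cells, was at 0.19 in the placodal-gene cells. The placodal median (-0.076) and DLX6 (-1.15) come from the genes that chose those cells and are no result. VGLL2 turned to -0.32 against intermediate cells, and was at 0.47 without 1 of them. The cause of these changes was not tested, and the placodal-gene cells are few by construction. There 15 of the followed genes had 0 counts in a group and no value is given. TMM scaling, the mean of cells' CPM, thinning to 500000 counts, other limits on cells and 0.1 CPM added left the 30 genes of highest and lowest fold at least 2-fold apart, except that VGLL2 had 0 counts in the reporter-silent cells of at least 2000 genes and 1000000 counts. No paired analysis was possible because cells carry no number that links the groups and each stage is 1 sample. Genes under 20 CPM in both groups could not be judged at this depth.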
